A study of Mus musculus with 6 samples.

Results

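The enzymes that write, erase and act beside DNA methylation were examined at the level of open chromatin in splenic immature B cells, through 10 genes taken by name from 3 families. These were the DNA methyltransferase genes Dnmt1, Dnmt3a and Dnmt3b, the TET dioxygenase genes Tet1, Tet2 and Tet3, and the genes of the core of Polycomb repressive complex 2 (PRC2), Ezh1, Ezh2, Eed and Suz12. They are 10 of 21883 protein-coding genes on the autosomes, X and Y. Accessible DNA was profiled by ATAC-seq, an assay that lets a transposase insert sequencing adapters where DNA is open. Immature B cells (B220+CD93+) came from spleens of Tcrd-GDL mice, a strain in which diphtheria toxin can deplete γδ T cells, because these carry its receptor. The DTx group held 3 libraries from mice given diphtheria toxin intraperitoneally, as 2 doses of 15 ng per gram of body weight with 48 h between them, and analysed on day 8 counted from the first dose. The untreated group held 3 libraries from mice of the same strain that received no toxin. The design does not separate loss of γδ T cells from other effects of the toxin, and since no label says that each library is a mouse of its own, a p-value covers only variation among these libraries, which may be technical.

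DNMT1 copies methyl groups onto the new strand after replication, whereas DNMT3A and DNMT3B methylate CpG sites that carried no mark. TET enzymes oxidise 5-methylcytosine, which opens the way to its loss. In PRC2, EZH1 or EZH2 methylates lysine 27 of histone H3, with EED and SUZ12 as the partners that the complex needs to be stable and active. In B cells TET2 and EZH2 are known as regulators of the germinal centre response, and both, like DNMT3A, are recurrently mutated in blood cancers.

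For each library the data are 1 list of MACS2 peaks. The DTx lists held 44661, 56266 and 60811 peaks, and the untreated lists 36760, 42504 and 56503. DTx replicate 1 and untreated replicate 3 had the layout of MACS2's narrow mode and the other 4 lists that of its broad mode, so values are also given within a layout where a result rests on them. The sources used here give no read totals, so the depth is unknown and no interval that needs it is printed. The strength of a peak is given as its within-list percentile, its rank by −log10 q among all peaks of its own list, where a higher percentile is a stronger peak. Because a longer list adds weak peaks and so raises the percentile of strong ones, groups were compared in equal-length lists, made of the 36760 strongest peaks of each library. A gene-end peak is one within 1 kb of either outer end of a gene. Among B lineage markers, which the sorted cells should carry, 7 showed such a peak in each of the 6 libraries. Of 5 T cell markers, Cd3e, Cd8a and Zap70 had none in any library, Cd3g had one in 1 DTx library, and Cd4 in 2 DTx and 2 untreated libraries. Of 6 myeloid markers, Lyz2, Ly6g, Adgre1 and Mpo had none, Itgam had one in 3 DTx and 2 untreated libraries, and Csf1r in 1 DTx and 3 untreated libraries. Among erythroid markers, Gata1, Hba-a1 and Alas2 had none, while Hbb-bt had one in each of the 6 libraries and Epor in 3 DTx and 2 untreated libraries. The part of such cells in the values below was not tested.

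RefSeq gave 14 start sites for the 10 genes, 3 each for Dnmt1 and Dnmt3a and 1 for each other gene, and their promoter windows (250 bases before to 50 after the start) are taken from RefSeq on GRCm38.p6, the build of the mm10 peak coordinates. A set of 7 windows is shown as examples from each family, 5' to 3' on the strand of the gene with every CpG in capitals. The first 2 are the outer Dnmt1 start, which lay under no peak, and the inner Dnmt1 start, which lay under a strong peak in every library. They are at chr9:20959839-20960138 and chr9:20952574-20952873, both on the minus strand.
Dnmt1 outer start: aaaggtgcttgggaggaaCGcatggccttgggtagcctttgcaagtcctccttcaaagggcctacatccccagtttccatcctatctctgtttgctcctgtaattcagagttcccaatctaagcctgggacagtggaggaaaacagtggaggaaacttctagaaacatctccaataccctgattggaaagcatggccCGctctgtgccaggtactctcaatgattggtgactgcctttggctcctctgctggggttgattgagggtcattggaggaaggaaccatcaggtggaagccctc
Dnmt1 inner start: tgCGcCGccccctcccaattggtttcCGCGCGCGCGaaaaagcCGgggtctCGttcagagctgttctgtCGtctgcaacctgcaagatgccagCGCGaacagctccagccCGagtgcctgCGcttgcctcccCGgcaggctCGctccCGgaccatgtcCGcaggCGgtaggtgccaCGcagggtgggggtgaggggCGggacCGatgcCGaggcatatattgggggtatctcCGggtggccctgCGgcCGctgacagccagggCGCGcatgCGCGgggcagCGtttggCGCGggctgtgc
The internal start of Dnmt3a, at chr12:3891494-3891793 on the plus strand, was open in every library although it lies 84.8 kb inside the gene from the first start.
Dnmt3a internal start: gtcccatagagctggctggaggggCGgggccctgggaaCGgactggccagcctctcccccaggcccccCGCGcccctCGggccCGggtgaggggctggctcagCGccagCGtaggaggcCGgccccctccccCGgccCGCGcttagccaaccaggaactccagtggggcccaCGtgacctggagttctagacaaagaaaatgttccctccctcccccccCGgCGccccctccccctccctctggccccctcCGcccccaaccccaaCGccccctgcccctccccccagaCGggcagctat
The starts of Tet1 (chr10:62887275-62887574, minus strand) and Tet2 (chr3:133544341-133544640, minus strand) had the weakest and the strongest start-site peak of the TET genes.
Tet1: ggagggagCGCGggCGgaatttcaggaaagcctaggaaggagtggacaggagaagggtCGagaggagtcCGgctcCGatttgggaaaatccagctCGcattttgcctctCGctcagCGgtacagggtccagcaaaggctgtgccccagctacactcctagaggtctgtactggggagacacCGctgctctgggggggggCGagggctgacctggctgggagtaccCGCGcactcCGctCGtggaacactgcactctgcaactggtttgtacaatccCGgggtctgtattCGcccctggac
Tet2: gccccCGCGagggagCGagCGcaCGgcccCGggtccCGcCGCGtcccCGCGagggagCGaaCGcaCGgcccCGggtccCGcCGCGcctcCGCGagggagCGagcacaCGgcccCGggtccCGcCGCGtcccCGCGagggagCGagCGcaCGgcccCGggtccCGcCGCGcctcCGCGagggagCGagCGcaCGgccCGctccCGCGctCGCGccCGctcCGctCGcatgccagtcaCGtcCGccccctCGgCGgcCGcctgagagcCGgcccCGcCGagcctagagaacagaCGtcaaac
The starts of Ezh2 (chr6:47594981-47595280, minus strand) and Eed (chr7:89980927-89981226, minus strand) stand for the PRC2 genes, of which Eed had the highest mean start-site percentile.
Ezh2: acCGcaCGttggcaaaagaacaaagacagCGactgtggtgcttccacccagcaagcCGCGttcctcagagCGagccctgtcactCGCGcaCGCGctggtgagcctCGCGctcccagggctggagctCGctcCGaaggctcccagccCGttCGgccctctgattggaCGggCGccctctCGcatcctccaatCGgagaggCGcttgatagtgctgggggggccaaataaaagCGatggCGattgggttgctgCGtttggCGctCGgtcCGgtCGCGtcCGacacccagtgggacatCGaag
Eed: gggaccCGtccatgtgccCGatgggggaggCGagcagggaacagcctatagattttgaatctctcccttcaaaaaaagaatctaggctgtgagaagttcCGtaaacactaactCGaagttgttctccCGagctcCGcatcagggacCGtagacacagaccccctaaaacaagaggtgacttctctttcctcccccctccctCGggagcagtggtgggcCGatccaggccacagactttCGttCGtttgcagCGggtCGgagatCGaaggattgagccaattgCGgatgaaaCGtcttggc

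The 14 windows had a median of 26.5 CpG dinucleotides, against 13 in the 21262 windows of protein-coding genes. Tet2 held 57 CpGs, more than 99.8% of all windows. Dnmt3a held 46 and 47 at its first 2 starts, which lie 0.18 kb apart, and 18 at the internal start. Suz12 held 41, the inner Dnmt1 start 33, Ezh2 31, Dnmt3b 30, Ezh1 23 and Tet3 22. The middle Dnmt1 start held 12 and the outer one 2, the only counts of the 14 below the median of all windows. Eed and Tet1 held 17 each and yet had the highest and the lowest mean start-site percentile of the 10 genes, which can be seen in the plot of CpG count against peak strength. Among short motifs searched on both strands, an exact match to the NRF1 consensus was found in 2 of the 14 windows, both of Dnmt1, against 1.33% of all windows. These 2 are windows of the middle and the inner start, which lie 0.356 kb apart and under the same peak. The E2F motif TTTNNCGC was found in 3 windows, those of the inner Dnmt1 start, Ezh2 and Suz12, against 6.24% of all windows. The SP1 motif GGGCGG was in 9 of 14 (46.2% of all windows) and the NFY motif CCAAT in 6 of 14 (38.2%). The 9 windows with the SP1 motif are not independent, as they include all 3 of Dnmt3a, of which the first 2 overlap. The ETS motif CCGGAAG and the YY1 motif AAGATGGCG were in 0 of 14 (11.6% and 1.83% of all windows). Motifs were matched by letters alone, with overlaps between motifs not removed, and a match is not a binding site.

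**Figure D1:**
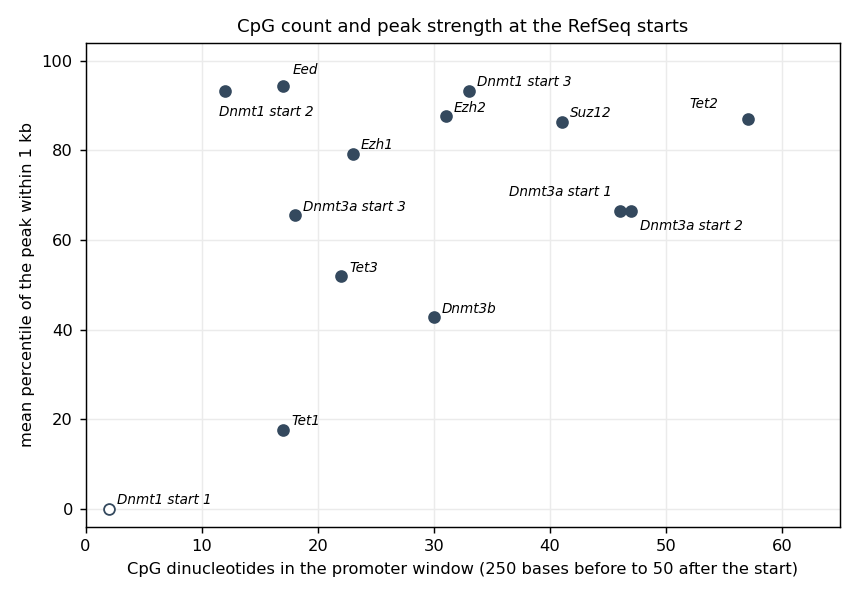
CpG dinucleotides in each RefSeq promoter window (horizontal axis) against the mean within-list percentile of −log10 q of the strongest peak within 1 kb of that start, over the libraries with a peak (vertical axis), with 1 point for each of the 14 starts. The open point at 0 is the outer Dnmt1 start, which had no peak. Eed and Tet1 share a count of 17 CpGs at mean percentiles of 94.4 and 17.7.

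A start-site peak, within 1 kb of a RefSeq start, was called in each of the 6 libraries for 9 of the 10 genes, against 51.3% of 17491 genes with a start in the table. The exception was Tet1, with 2 DTx and 3 untreated libraries showing one, and 2.18% of genes likewise had fewer DTx than untreated libraries. At gene ends, 7 of the 10 genes showed a peak in each library, against 49.2% of 21883 genes. The outer ends of Dnmt1 and Dnmt3a had no peak in any library (40.9% of genes), while other starts of both had one. By the mean percentile of the strongest start-site peak, the order was Eed (94.4), Dnmt1 (93.2), Ezh2 (87.6), Tet2 (86.9), Suz12 (86.4), Ezh1 (79.2), Dnmt3a (69.0), Tet3 (51.9), Dnmt3b (42.8) and Tet1 (17.7). The upper part of this order was not settled by the libraries, since Eed was above Dnmt1 in 4 of 6, Dnmt1 above Ezh2 in 4 of 6, Ezh2 above Tet2 in 4 of 6 and Tet2 above Suz12 in 3 of 6. The lower part was steadier: Suz12 was above Ezh1, Ezh1 above Dnmt3a and Dnmt3a above Tet3 in 6 of 6, Tet3 above Dnmt3b in 5 of 6, and Dnmt3b above Tet1 in 5 of the 5 libraries with both. Within the methyltransferases and the TET genes the range was wide, and within PRC2 it was narrow.

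**Figure D2:**
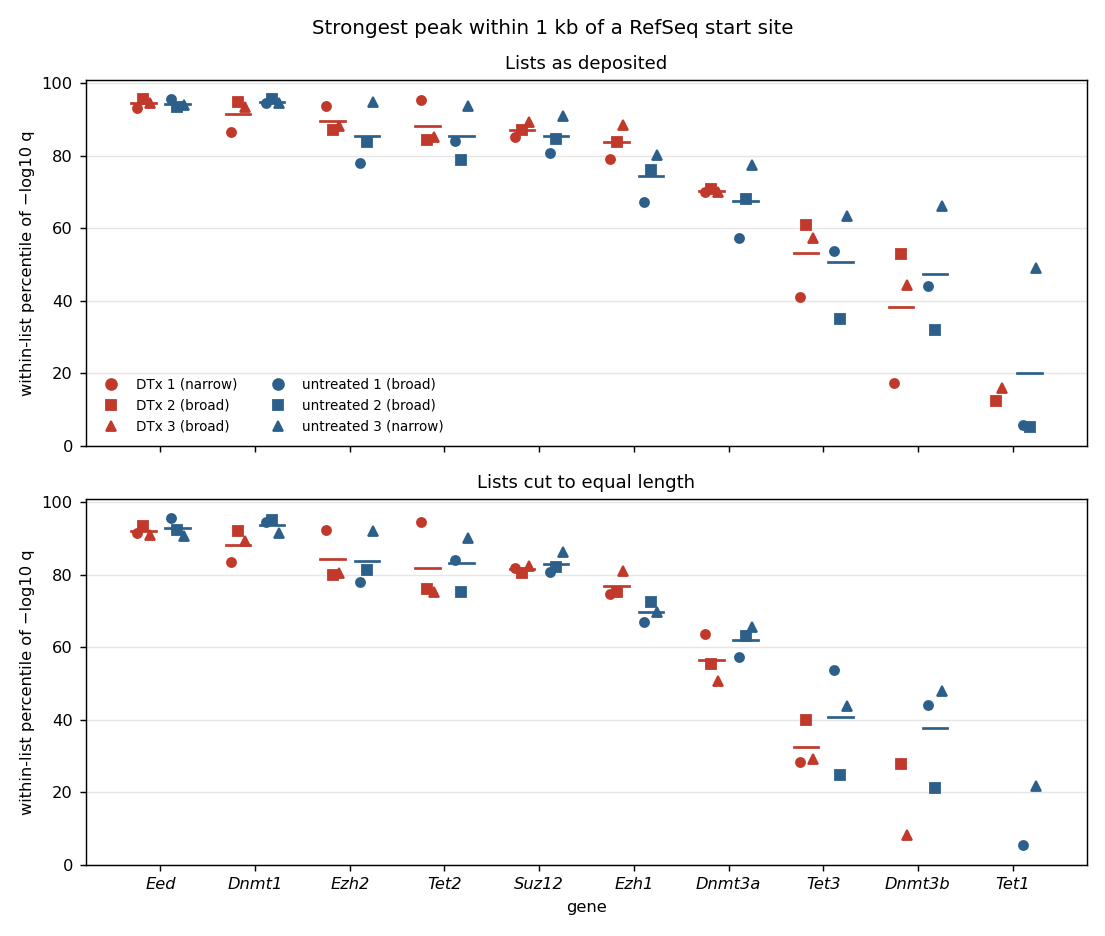
Within-list percentile of −log10 q of the strongest peak within 1 kb of a RefSeq start (vertical axis) for each gene (horizontal axis, by mean), with DTx libraries in red to the left of untreated libraries in blue and a line at the group mean where all 3 libraries had a peak. The upper panel has the lists as deposited and the lower one the 36760 strongest peaks of each list. In the lower panel the DTx and untreated points of Ezh1 do not overlap.

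Dnmt1, the maintenance methyltransferase, had a strong peak at its middle and inner starts and none at its outer one. The outer start, at position 20959888 of chromosome 9, lay 6.64 kb from the nearest region, and no library had a peak within 1 kb of it. In mouse, Dnmt1 is known to use an oocyte start and a somatic start, which the RefSeq table does not label. The region over the other 2 starts (chr9:20952353-20953245) stood at percentiles of 86.5, 94.8 and 93.5 in the DTx libraries and of 94.5, 95.7 and 94.4 in the untreated libraries. DTx replicate 1 was the low library, and the groups overlapped because DTx replicate 2 was above 2 of the untreated libraries. In equal-length lists the percentiles were 83.6, 92.1 and 89.3 in DTx and 94.5, 95.03 and 91.5 in untreated libraries, again with overlap. The difference, DTx minus untreated, was -5.34 points (SE 2.31), with an unadjusted p of 0.0450 and an adjusted p of 0.998 by limma over 8484 genes with Benjamini-Hochberg adjustment. This fit at RefSeq starts was added after seeing the data. By limma, 318 of the 8484 genes had an unadjusted p under 0.05, and the median difference over the 8484 genes was -1.37 points. At starts, 1.16% of these genes were higher and 7.93% lower in every DTx library, and apart from Ezh1, described below, the 8 members tested there overlapped between groups. The Dnmt1 difference was -4.08 points within the broad layout and -7.88 points within the narrow layout. The authors' fold enrichment at this peak was 16.9, 9.56 and 9.01 in DTx libraries and 9.53, 10.1 and 20.3 in untreated libraries. The high values were those of the 2 narrow-layout lists, which is why folds were not compared between groups.

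Dnmt3a, a de novo methyltransferase, had peaks of middling strength over its 3 starts. The region over its first 2 starts (chr12:3806078-3807604) stood at percentiles of 70.1, 70.8 and 63.5 in DTx libraries and of 57.2, 59.7 and 77.6 in untreated libraries. The region over the internal start (chr12:3890791-3892870) stood at 59.1, 70.4 and 70.1 in DTx libraries and at 48.4, 68.2 and 76.9 in untreated libraries. At both, untreated replicate 3 was the highest and untreated replicate 1 the lowest library, so the DTx values lay within the untreated range. A short isoform of DNMT3A is known to start inside the gene, but the table does not say which start serves it. In equal-length lists the strongest Dnmt3a start averaged 56.5 in DTx and 62.0 in untreated libraries, a difference of -5.46 points (SE 5.28, limma, adjusted p = 0.998). Its rank among the 10 genes was 7 in every library.

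Dnmt3b, the other de novo enzyme, had a single, weaker start-site peak (chr2:153649198-153650416). Its percentiles were 17.3, 52.9 and 44.5 in DTx libraries and 44.0, 31.9 and 66.2 in untreated libraries. The 2 extremes were the narrow-layout lists, DTx replicate 1 the lowest and untreated replicate 3 the highest, and the groups overlapped. In equal-length lists the peak dropped out of DTx replicate 1 and stood at 27.9 and 8.11 in DTx replicates 2 and 3, against 44.0, 21.2 and 48.0 in untreated libraries. The peak of DTx replicate 1 had a −log10 q of 8.99, just under 9.26, the lowest value kept from that list. The same DTx replicate 3 peak went from 44.5 to 8.11 when its list was cut from 60811 to 36760 peaks. The equal-length values therefore do not show that the start was less open in DTx libraries. With a missing value Dnmt3b entered no fit on genes called in all 6 equal-length lists.

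Tet1 was the least open of the TET genes at its start. DTx replicate 1 had no peak there, DTx replicates 2 and 3 had peaks at percentiles of 12.5 and 16.1, and the untreated libraries had peaks at 5.60, 5.21 and 49.0. Apart from untreated replicate 3, these were peaks near the limit of calling, with −log10 q of 2.52 and 3.49 in DTx replicates 2 and 3 and of 1.86 and 1.92 in untreated replicates 1 and 2, against 33.8 in untreated replicate 3. In equal-length lists a Tet1 start peak remained in 0 of 3 DTx and 2 of 3 untreated libraries. Fewer DTx than untreated libraries had a gene-end peak in 5.07% of all genes under that setting. The cut to equal length removed the Tet1 start peaks of DTx replicates 2 and 3 and of untreated replicate 2. Untreated replicate 1 was the shortest list and lost no peaks, so its peak stayed, at a percentile of 5.60. The removed DTx peaks had stood higher in their deposited lists, at 12.5 and 16.1. The equal-length count therefore does not show that the start was closed in DTx replicates 2 and 3. A region 3.22 kb inside the gene (chr10:62883866-62884352) was present in each library, at a mean percentile of 30.5, as was one 21.7 kb inside it (chr10:62865134-62866039), at 38.0.

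Tet2 had the strongest and the widest start-site peak of the TET genes (chr3:133543315-133545512). Its percentiles were 95.5, 84.4 and 85.1 in DTx libraries and 84.0, 78.7 and 93.7 in untreated libraries. The narrow-layout list was the highest of each group, and the groups overlapped. The peak was 1614, 1693 and 1764 bp wide in DTx libraries and 1733, 1649 and 2198 bp wide in untreated libraries, wider than 90.5% to 96.6% of genes with a gene-end peak in the same library. Its equal-length percentiles averaged 82.0 in DTx and 83.2 in untreated libraries, a difference of -1.21 points (SE 5.89, limma, adjusted p = 0.997).

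Tet3 was more open at the outer end of its gene than at its RefSeq start. The start (chr6:83441296-83442081) stood at percentiles of 41.1, 60.8 and 57.3 in DTx libraries and of 53.7, 34.9 and 63.5 in untreated libraries. The region at the outer end (chr6:83455409-83457404), 14.7 kb upstream of that start, stood at 58.5, 83.1 and 75.0 in DTx and at 72.5, 71.9 and 81.8 in untreated libraries. It was above the start in each of the 6 libraries. In equal-length lists the outer end had percentiles of 49.6, 74.1 and 58.7 in DTx and of 72.5, 67.5 and 72.0 in untreated libraries. The groups overlapped through DTx replicate 2, the highest of all, and the difference was -9.89 points (SE 6.38, limma, adjusted p = 0.997).

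Eed, which encodes the PRC2 subunit that binds trimethylated lysine 27, had the highest mean start-site percentile and the narrowest range over the 6 libraries, although Dnmt1 was above it in 2 of 6 libraries and in the untreated mean. Its peak (chr7:89980018-89981605) stood at percentiles of 93.1, 95.7 and 94.6 in DTx and of 95.7, 93.5 and 94.0 in untreated libraries, a range of 93.1 to 95.7. In equal-length lists the difference was -0.91 points (SE 1.59, limma, adjusted p = 0.997). Suz12, the scaffold subunit, had a peak (chr11:79992517-79993832) at 85.1, 87.3 and 89.4 in DTx and at 80.8, 84.5 and 91.1 in untreated libraries. The untreated libraries spanned the DTx ones, and the equal-length difference was -1.44 points (SE 3.26, limma, adjusted p = 0.997).

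Ezh2, the catalytic subunit that predominates in dividing cells, had a peak (chr6:47594086-47595649) at percentiles of 93.7, 87.0 and 88.2 in DTx and of 78.0, 83.9 and 94.9 in untreated libraries. The DTx libraries were above 2 of the 3 untreated libraries and the remaining untreated library was above all. In equal-length lists Ezh2 averaged 84.3 in DTx and 83.9 in untreated libraries, a difference of 0.42 points (SE 4.79, limma, adjusted p = 1.00).

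Ezh1, the catalytic subunit that persists in resting cells, was the gene with the weakest PRC2 start and the only one of the 6 tested on gene ends whose groups did not overlap. Its peak (chr11:101225934-101226739) stood in equal-length lists at 74.6, 75.2 and 81.0 in DTx libraries and at 67.1, 72.4 and 69.8 in untreated libraries. Every DTx library was above every untreated library, which was so for 1.22% of the 10172 genes tested. None of the 6 members tested was lower in every DTx library, against 7.84% of those genes. The difference at Ezh1 was 7.19 points (SE 4.21) with an unadjusted p of 0.122 and an adjusted p of 0.997 by limma, so it did not pass the test. It was 8.35 points within the broad layout and 4.86 points within the narrow layout. In the lists as deposited the percentiles were 79.1, 83.8 and 88.5 in DTx and 67.1, 76.1 and 80.3 in untreated libraries, the groups overlapped, and the difference within the narrow layout was -1.22 points. In the deposited lists the groups overlapped for each of the 7 members with a gene-end peak in all 6 libraries. There, 2.31% of 10772 genes were higher in every DTx library and 0.576% were lower. Ezh1 also had the narrowest gene-end peak of the members measured in all 6 libraries, at 440, 563 and 630 bp in DTx and 467, 626 and 801 bp in untreated libraries.

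Across the 10 genes, then, limma called 0 members in each of 3 measures at an adjusted p of 0.05, which does not show that the groups were alike. For the gene-end percentile, 6 members were tested among 10172 genes, of which 0 (0%) were called and 384 had an unadjusted p under 0.05, with no member among them. The median difference was -1.06 points over these 6 members and -1.30 points over all genes tested. For gene-end width, the same 6 members were tested, 0 of 10172 genes (0%) were called and 136 had an unadjusted p under 0.05. The member differences ran between -0.53 for Tet3 (SE 0.42) and 0.10 for Suz12 (SE 0.30) on the log2 scale, each with an adjusted p of 1.00. The widths of the groups overlapped for each member with a gene-end peak in all 6 libraries, 7 in the deposited and 6 in the equal-length lists. Among all such genes, 0.91% and 0.954% were wider and 1.28% and 1.6% narrower in every DTx library.

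The neighbourhood of a gene was taken as the gene and 50 kb on each side. In the lists as deposited, the 10 neighbourhoods held 77, 102 and 115 peaks in DTx libraries and 67, 86 and 107 in untreated libraries. No member's groups failed to overlap there, against 2.61% of 14193 genes higher and 0.0282% lower in every DTx library. The lowest and the highest sum came from the shortest and the longest list, and in equal-length lists the sums were 67, 74 and 79 in DTx and 67, 77 and 76 in untreated libraries. In the deposited lists Ezh1 lay in the densest neighbourhood of the 10, with more peaks per kb than 91.1% of protein-coding genes, followed by Dnmt1 (82.8%), Tet3 (81.4%) and Dnmt3a (80.0%). In the equal-length lists the order changed to Dnmt1, Tet3, Dnmt3a and Ezh1. Tet1 was close to the median gene in the deposited lists, above 51.1% of genes.

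In equal-length lists no member had a group above or below the other without overlap, against 1.41% of 12568 genes higher and 0.859% lower in every DTx library. Tet2 had 5, 3 and 4 peaks in DTx libraries and 8, 5 and 4 in untreated libraries, a log2 difference of -0.43 (SE 0.30, limma, adjusted p = 1). Untreated replicate 1 was the high library. Tet3 had 11, 14 and 14 peaks in DTx and 9, 12 and 12 in untreated libraries, a log2 difference of 0.23 (SE 0.16, limma, adjusted p = 1). Ezh2 had 3, 2 and 4 peaks in DTx and 3, 3 and 3 in untreated libraries, and Eed 7, 6 and 7 in DTx and 7, 7 and 7 in untreated libraries. Ezh1 had 6, 8 and 9 peaks in each group. All 10 members were tested, 0 of 12568 genes (0%) were called, and 173 genes, none of them a member, had an unadjusted p under 0.05. The log2 differences are on the log2(peaks + 0.5) scale, which understates changes of low counts.

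**Figure D3:**
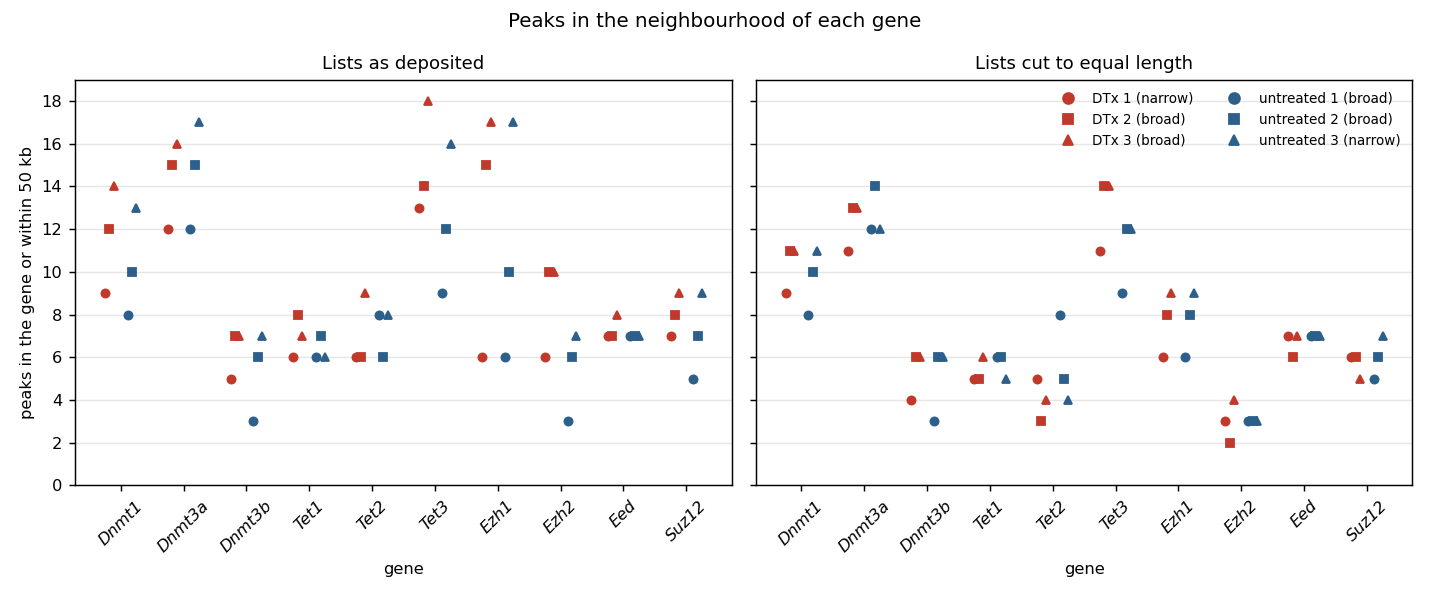
Number of peaks centred on the gene or its 50 kb flanks (vertical axis) for each gene (horizontal axis), 1 point for each library, with DTx in red to the left of untreated in blue. The left panel has the lists as deposited and the right panel the equal-length lists, where the 10 genes summed to 67, 74 and 79 peaks in DTx and 67, 77 and 76 in untreated libraries.

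Merged over the 6 deposited lists, there were 121 regions in the neighbourhoods. Each of the 6 libraries had 64 of them (52.9%, against 44.1% of all 70174 regions) and 14 were in 1 library (18.2% of all regions). By position, 13 were at a start or end of a member, 23 at an end of another gene, 32 inside a member away from its starts and ends, and 53 outside. No region was found in every DTx library and no untreated one, against 0.705% of all regions, and none the other way round (0.0242%). In equal-length lists both counts were again 0 (0.367% and 0.579% of 48714 regions). The share called in all 6 libraries was 23 of 38 regions near the methyltransferase genes, 20 of 36 near the TET genes and 21 of 47 near the PRC2 genes. Eed had the steadiest neighbourhood, with 7 of 8 regions in all 6 libraries, and Ezh2 the least steady, with 3 of 11. Regions in 1 or more DTx libraries and no untreated one numbered 13 of 121 (17.9% of all regions), and those in untreated libraries alone numbered 4 (5.42%). At Ezh2, 5 regions were seen in DTx libraries alone, each in 1 or 2 of them, and 4 of these 5 were in no equal-length list.

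Inside the gene body, Dnmt3a and Tet3 had 7 regions each away from starts and ends, and Dnmt3a had the most that were called in all 6 libraries, 4 of its 7. These 4 lay between the first and the internal start, at 27.5, 35.7, 29.8 and 20.5 kb from the nearest start in the order of the gene, with mean percentiles of 72.5, 64.6, 24.3 and 77.9. Tet2 had 3 such regions, each called in all 6 libraries and weak, at mean percentiles of 32.4, 23.0 and 15.9. Of those in Tet3, the regions 5.08 kb and 28.5 kb downstream of the start were in all 6 libraries, at 67.7 and 62.3. Eed and Suz12 had 0 regions inside the gene away from its ends, and Dnmt1 and Dnmt3b had 1 each.

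**Figure D4:**
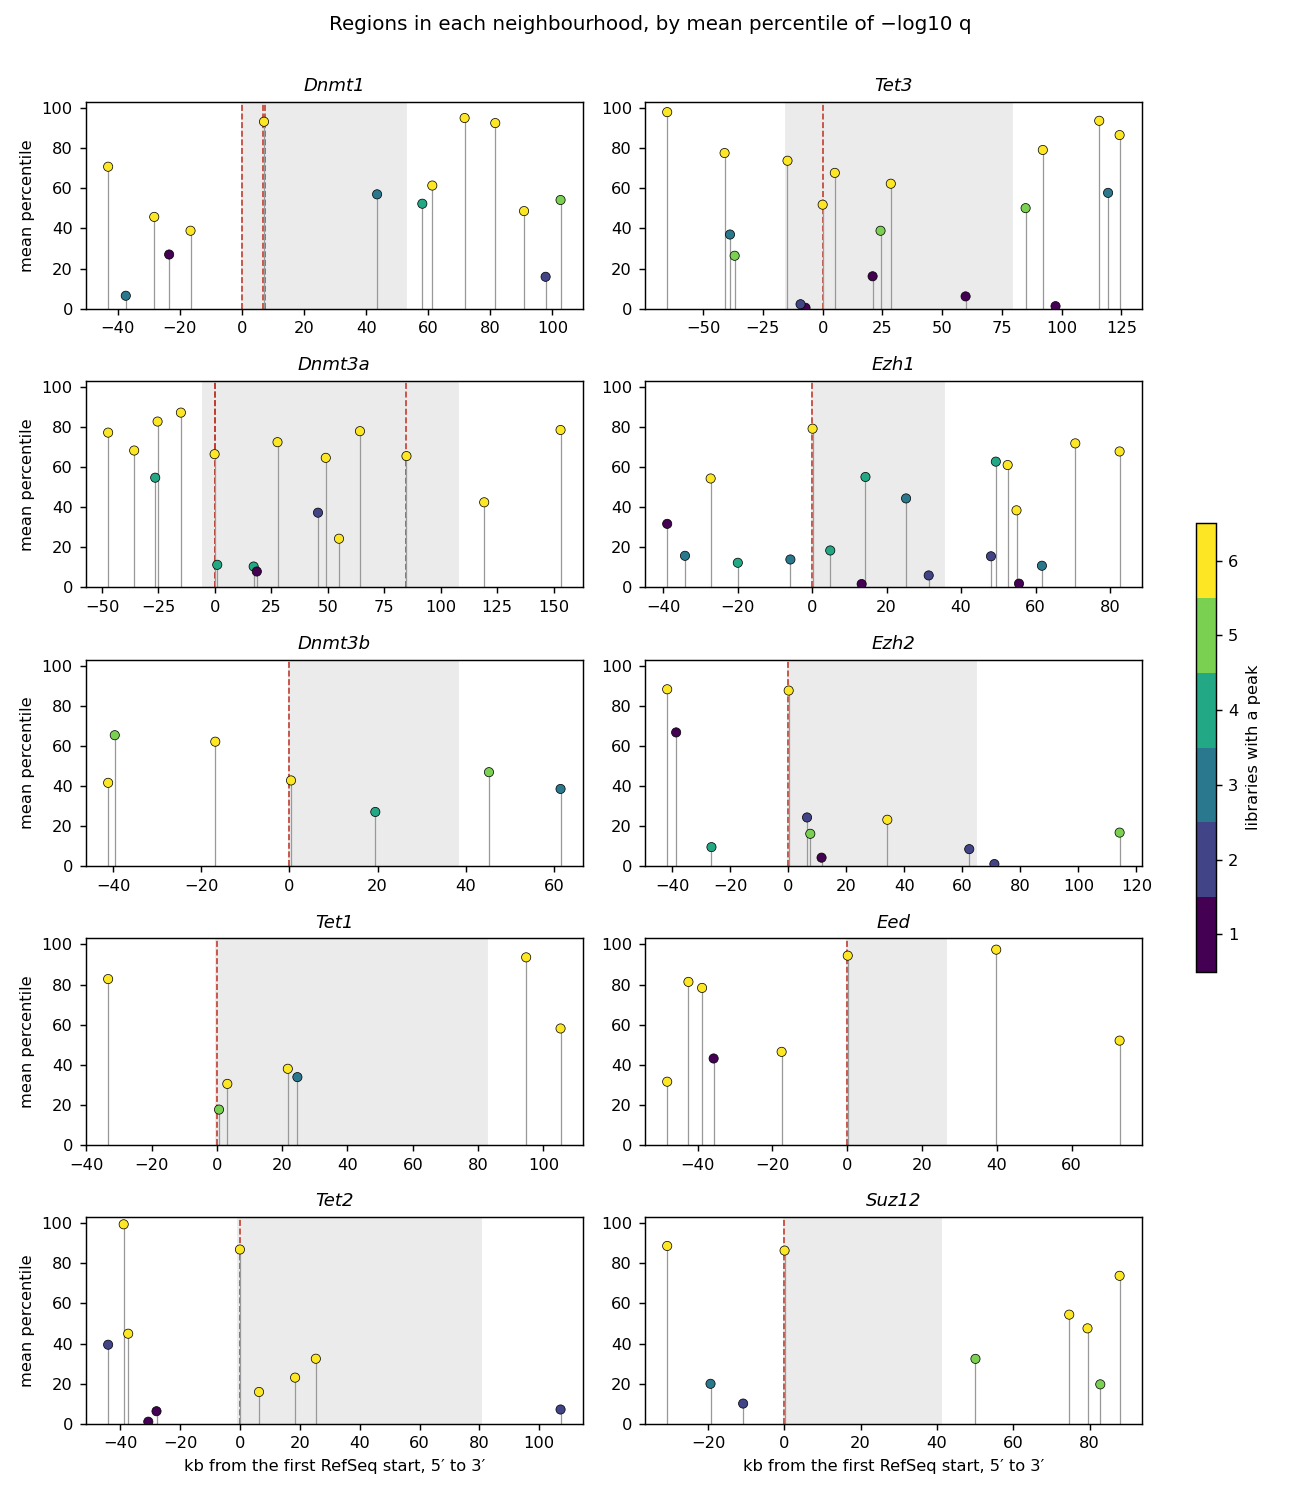
Regions in the neighbourhood of each gene, at the distance of their midpoint from the first RefSeq start in kb, read in the direction of transcription (horizontal axis), and at their mean within-list percentile of −log10 q over the libraries with a peak (vertical axis). Colour gives the number of libraries with a peak, grey the gene between its outer ends and dashed red lines the RefSeq starts. The region of highest percentile in the Tet2 panel lies 38.9 kb upstream of the start.

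By mean within-list percentile, the strongest region of all 121 lay upstream of Tet2 (chr3:133582703-133583832). Its percentiles were 99.9, 99.5 and 99.5 in DTx libraries and 99.2, 99.1 and 99.5 in untreated libraries. Only 165 of the 30954 regions called in all 6 libraries (0.533%) had a lowest percentile as high. It lay 38.9 kb upstream of the Tet2 start, and the nearest protein-coding gene in the table was Tet2 itself, at 37.6 kb. It was above the Tet2 start in each of the 6 libraries. Of the 64 regions called in every library, 4 had a mean percentile over 95, and the other 3 were at ends of other genes (Dguok near Tet3, Hikeshi near Eed and Ppan near Dnmt1). Fold enrichment gave another order, with the Hikeshi region above the Tet2 one in every library. The folds were 21.3, 8.92 and 9.27 against 16.5, 7.21 and 7.35 in DTx libraries. In untreated libraries they were 7.97, 10.2 and 21.9 against 6.21, 6.87 and 15.8.

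Regions away from gene ends also had a higher mean percentile than the start at Dnmt3a, Tet3, Tet1, Dnmt3b and Ezh2. The region 15.1 kb upstream of Dnmt3a (chr12:3791498-3792315) stood at percentiles of 87.4, 85.8 and 91.3 in DTx and of 88.4, 81.1 and 89.2 in untreated libraries, above the Dnmt3a starts in 6 of 6 libraries. The nearest protein-coding gene there was Dtnb, at 6.01 kb, so its tie to Dnmt3a is one of distance only. At Tet3 the strongest such region (chr6:83316966-83317823), at a mean percentile of 86.6, lay on the downstream side inside Mthfd2. At Tet1 it was a region inside Ccar1 (chr10:62781626-62782496), at a mean of 58.1 over 6 libraries. The mean of the weak Tet1 start was 17.7 over 5 libraries, and the region was above it in these 5. At Dnmt3b the strongest such region lay 39.6 kb upstream (chr2:153609539-153610136), with Commd7 as the nearest gene, at 6.79 kb. It was called in 5 libraries at a mean of 65.3 and was above the start in each of them. At the other genes the strongest such region was below the start in each library. For Dnmt1 it lay inside Mrpl4 (chr9:21002446-21003547, mean percentile 70.8), for Ezh1 it lay outside genes and nearest to Tubg2 (chr11:101143430-101144403, mean percentile 67.8) and for Suz12 inside Crlf3 (chr11:80067407-80068167, mean percentile 54.4).

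At Ezh2 a region 41.7 kb upstream (chr6:47636277-47637206) was above the start in 4 of 6 libraries, at 80.7, 93.1 and 92.5 in DTx and 84.7, 89.2 and 89.3 in untreated libraries. At Eed a region 42.4 kb upstream (chr7:90023044-90023771) stood at 84.2, 87.1 and 83.2 in DTx and at 77.2, 74.6 and 81.8 in untreated libraries. Every DTx library was above every untreated library at this region, with means of 84.8 ± 2.00 and 77.9 ± 3.61 (SD, n = 3 each). The same held for a second region upstream of Eed (chr7:89997908-89999070) and for one at the ends of Ccr10 and Plekhh3 near Ezh1. These were 3 of the 64 member regions called in all 6 libraries (4.69%), against 6.43% of all such regions. None of the 64 was lower in every DTx library, against 0.417%. These percentiles are from the deposited lists, which held between 44661 and 60811 peaks in DTx and between 36760 and 56503 in untreated libraries.

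Beyond the core enzymes, 73 genes of 6 related lists were read in the same way. Their counts stand against 49.2% of all genes with a gene-end peak in each library and 40.9% with one in none. Of 10 partners of the methyltransferases, 6 showed a gene-end peak throughout, in each of the 6 libraries, among them Uhrf1, which brings DNMT1 to hemimethylated DNA, at a mean percentile of 91.8. Of 9 genes grouped with readers of methylated CpG, 8 did, and of 15 genes of active demethylation and base repair, 12 did. These 12 included Tdg, the glycosylase that removes oxidised methylcytosine, at 93.1. Of 10 accessory PRC2 genes, 9 did, of 22 PRC1 genes, 20, and of 7 genes grouped with erasers of Polycomb marks, 3. Genes with a different number of libraries were Dnmt3l (2 DTx, 1 untreated), Kdm6a (2 and 1), Idh2 (0 and 1), Ring1 (2 and 3) and Cbx7 (2 and 3). More DTx than untreated libraries had a gene-end peak in 5.02% of all genes, and fewer in 2.36%. At RefSeq starts, Kdm6a, Idh2 and Cbx7 had a peak in all 6 libraries. Ring1 had one there in 2 DTx and 3 untreated libraries, and Dnmt3l in 0 and 1. Gene ends of Usp7, Dppa3, Zfp57, Zbtb38, Cxxc4, Ezhip, Uty and Asxl3 had no peak in any library, although Usp7 and Zbtb38 had a peak at a RefSeq start in all 6. By limma, 0 of the 54 list genes tested on gene-end percentile, 0 of 54 on width and 0 of 61 on neighbourhood peaks were called, with 2, 1 and 2 at an unadjusted p under 0.05.

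By likeness over the 6 deposited lists among the 10771 other genes with a peak in each, the closest gene to Suz12 in gene-end percentile was Lrba, at a mean absolute difference of 0.50 points. For Eed it was Ptger4 (0.60 points), for Tet2 Crebzf (0.83), for Ezh2 Paxbp1 (0.95), for Tet3 Fhl4 and Tmem263 (1.63 each), for Ezh1 Ube4a (1.84) and for Dnmt3b Zfp592 (3.52). Dnmt1, Dnmt3a and Tet1 had no gene-end percentile in all 6 libraries and were not compared.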

How the data were processed

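ATAC-seq of 3 DTx and 3 untreated libraries was deposited as 1 peak list per library. Reads were processed with Trim Galore 0.4.3, Bowtie2 2.3.2 and MACS2 2.1.1 on mm10, per the submitters' processing notes. The sources used here do not give read totals or say how read ends were shifted and duplicates treated. Per the file headers, each deposited list gives the length of a peak, its pileup signal and its fold enrichment as a ratio. The deposited −log10 p-value and −log10 q-value columns have damaged headers and were told by column order and by their values. All of these are values of the authors for single peaks, compared only inside 1 list.

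Analysis covered the 19 autosomes, X and Y, without the 2 mitochondrial peaks that each list held. Gene ends and starts are from RefSeq tables of GRCm38.p6, without exons, so exons and introns were not told apart; a window of 1 kb and 1 bp of overlap were used. All 10 members were in the gene table and in the start-site table, which covers 17491 genes. Percentiles, log2 summed widths and log2(peaks + 0.5) of equal-length lists were fitted over all genes with a peak in all 6 lists, or a mean of at least 3 neighbourhood peaks, with limma 3.58.1 (trend) in R 4.3.3. For peak counts, residual SDs below the median were raised to it. P-values were Benjamini-Hochberg adjusted over all genes tested, with a threshold of 0.05, and the fits were tested on simulated data. Python 3.11.15, pandas 2.3.3 and NumPy 2.4.6 served for the rest. Fits at RefSeq starts were added after seeing the data. Alternatives included deposited lists, a layout term, a replicate block, each library left out, other windows and stronger peaks. All 10 members were named, with the strongest region at and away from their ends; of the other lists, genes called unequally between groups or in no library were named, and further genes of those lists were chosen after their values were seen. The members and lists were chosen with earlier results of these data known. Some cell type markers are not reported here.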

Additional observations from a re-analysis of the deposited data

How the results depend on the processing

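The number of members called stayed at 0 in all 3 measures under every alternative that was run. The lowest adjusted p of any member by limma was 0.616 for the gene-end percentile (without DTx replicate 1), 0.906 for width and 0.862 for neighbourhood peaks. With the replicate number as a block, 0 members were called, with lowest adjusted p-values of 0.986, 0.999 and 0.888; deviations of same-numbered libraries correlated at 0.160, 0.142 and -0.129 for the percentile and at 0.438, 0.0502 and 0.327 for peak counts, not all over 0.1 in either, so the numbers were not taken to pair the libraries. Member regions in every DTx and no untreated library numbered 0, but 13 of 118 in the broad-layout lists alone (11.02%, against 12.4% of all regions there; 2 against 2) and between 0 and 3 when each library was left out, with 3 of 121 without DTx replicate 1 (2.48%, against 3.95% of all regions). Member regions in every untreated and no DTx library numbered 0, but 32 of 106 in the narrow-layout lists alone (30.2%, against 26.5% of all regions there; 1 against 1). The cause was not tested. Genes with a gene-end peak in every library numbered between 7 and 8 with each library left out, and 9 at RefSeq starts, an alternative chosen after seeing the data. The sign of the uncalled member differences turned in 11 of 90 comparisons with an alternative for the percentile, 7 of 90 for width and 25 of 152 for peak counts. Some alternatives, such as the layout term and the replicate block, leave the difference itself unchanged and could not turn a sign. The totals include these, so they do not measure how steady the signs were. With residual SDs as fitted, 60 genes, no member among them, were called on neighbourhood peaks, against 0. On width, between 0 and 3 of all genes were called across the alternatives. The unknown depth, the mix of layouts and 3 libraries per group limit what can be detected.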
